A study of Homo sapiens with 8 samples.

Results

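STK25 and 7 further genes of the STRIPAK complex were followed in the 143BTK- line, which comes from a human osteosarcoma and is named for its lack of thymidine kinase. The 8 genes, of 15982 symbols counted, were STK25, STK24, STRN, STRN3, STRN4, PDCD10, MOB4 and SIKE1. STK25 was taken because it had the smallest p-value of all genes between the groups compared here, and the other genes because their products belong to the same complex. Galactose (10 mM) replaced glucose in the medium of all cultures, with 5% serum that had been dialysed. The 4 miR-101 cultures received 80 pmol of an hsa-miR-101-3p mimic, a synthetic copy of this microRNA, and the 4 negative control cultures the same amount of a scrambled control mimic. Transfection was done at the start and again at 48 h, and total RNA was taken at 120 h and sequenced after removal of ribosomal RNA. The labels describe separate transfection experiments of a single cell line without tying the libraries to them. The mimic itself was not measured.

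STRIPAK, the striatin-interacting phosphatase and kinase complex, joins a protein phosphatase with kinases that it switches off. The striatins STRN, STRN3 and STRN4 are scaffolds that act as regulatory subunits of the phosphatase PP2A. PDCD10, also known as CCM3 from inherited cavernous malformations of brain vessels, links the striatins to the GCKIII kinases STK24, STK25 and STK26. MOB4 binds the striatin scaffold, and SIKE1 ties the complex to the membrane adaptor SLMAP. The complex is known for holding back the Hippo kinases STK3 and STK4 and for roles in Golgi position, cell polarity and migration. STK25 sits at the Golgi with the matrix protein GOLGA2, and it has been linked to lipid storage in liver.

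The sequences below show where the mimic could pair with the transcripts of the members, since their 3' UTR matches go with unlike responses. The mature miRNA, from RefSeq (GRCh38.p14, chromosome 9, 4850345 to 4850365, plus strand), is given 5′ to 3′ with its seed, bases 2 to 8, in capitals.
hsa-miR-101-3p: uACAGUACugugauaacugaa
A full match to the seed in DNA letters is GTACTGT (7mer-m8), the same word followed by A is GTACTGTA (8mer), and TACTGTA is the match to bases 2 to 7 followed by A (7mer-A1). The longest annotated 3' UTR of each member (GENCODE 29, GRCh38) was searched on the transcript strand, and the matches are shown in capitals.
MOB4, base 45 of 3053: attaacattatGTACTGTAtatatcatttt
MOB4, base 1927 of 3053: tcaccttccctGTACTGTAtgtttggaatt
SIKE1, base 65 of 4792: ttcccattcaaGTACTGTccattaagtgt
SIKE1, base 2728 of 4792: ctacctgtcagGTACTGTAttatataaact
STK25, base 486 of 2988: tgttggatcagGTACTGTgtctgctcata
STK24, base 4548 of 7988: cggatgtgtgtGTACTGTttttcaggggc
EZH2, base 114 of 262: gaatttgcaaaGTACTGTAagaataattta
MOB4 thus held 2 words of the 8mer class, SIKE1 an 8mer and a 7mer-m8, and STK25 and STK24 a single 7mer-m8 each. EZH2, a Polycomb methyltransferase long described as a miR-101 target, is shown for comparison and also holds a 7mer-m8. STRN and STRN3 held only matches of the 7mer-A1 class, 1 and 2 of them, and STRN4 and PDCD10 held none. Which 3' ends these cells use was not measured.

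Libraries held 17976327 to 20160267 counts with miR-101 and 17603054 to 19644320 counts with the negative control, and each member had at least 237 counts in each library. Values are CPM, the counts scaled per TMM-adjusted library size, and a mean is given ± SD over the libraries of its group (n = 4). In each group replicates 1 and 2 lay close together, by a chi-square per gene that used library totals without TMM factors. Its median was 1.05 between these miR-101 libraries and 1.14 between these controls, against 2.58 to 13.04 for other pairs within a group. Differences in TMM factor thus enter these values. The median expected from counting noise alone is 0.455, so replicates 1 and 2 were not counted as a single library. Whether they came from separate experiments is not settled by the labels, and each n of 4 and its SD rest on that. miR-101 replicate 4 and negative control replicate 3 had the lowest TMM factors of their groups, 0.922 and 0.915, against 1.00 to 1.07 elsewhere. Of 7 mesenchymal markers 5 were analysed here, and COL1A2 and THY1 were not among the symbols counted. The same held for epithelial CDH1 and KRT19, endothelial CDH5 and VWF, and immune PTPRC, CD3E and CD68. VIM ranged from 476 to 899.5 CPM over the 8 libraries, CD44 from 536 to 765 CPM and SPARC from 295 to 1442 CPM, and their log2 fold changes of -0.20 ± 0.200, -0.17 ± 0.113 and 0.74 ± 0.478 were not called. RUNX2, a transcription factor of bone cells, was called higher by edgeR, at 25.4 ± 4.80 CPM in miR-101 libraries, against 13.4 ± 4.00 CPM in control libraries (log2 fold change 0.93 ± 0.212, adjusted p = 0.0269), and COL1A1 was not called (1.10 ± 0.311, 0.0619). The epithelial gene EPCAM covered 9.30 to 17.0 CPM in miR-101 libraries, against 5.11 to 10.04 CPM in control libraries, higher in 4 of 4 pairs but not called (0.72 ± 0.263, edgeR adjusted p = 0.137). PECAM1, an endothelial gene, ranged from 0.860 to 3.96 CPM and TK1 from 12.4 to 18.1 CPM. What part these markers have in the results on the members was not tested. EZH2 averaged 28.1 ± 2.09 CPM in miR-101 libraries against 45.7 ± 5.12 CPM in controls, a log2 fold change of -0.70 ± 0.114 (edgeR adjusted p = 0.00561).

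STK25 was higher, SIKE1 modestly higher and MOB4 lower with the mimic, while the striatins, PDCD10 and STK24 were not called. By edgeR's quasi-likelihood test with Benjamini-Hochberg adjustment over 15905 genes, a call at an adjusted p under 0.05, 2 of the 8 members were called higher and 1 lower. Over all genes 6.62% were called, 3.3% higher and 3.32% lower. The libraries of the groups did not overlap for these 3 members, as for 15.1% of all tested genes. A fit blocked on the replicate number called those 3 members too, and 10.5% of all genes. Since STK25 was chosen by this contrast, the fold changes, intervals and calls of the 8 genes are descriptions, and nothing is read from their number. In these bulk samples a change in RNA per cell and a change in the share of cells that carry it cannot be told apart.

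**Figure D1:**
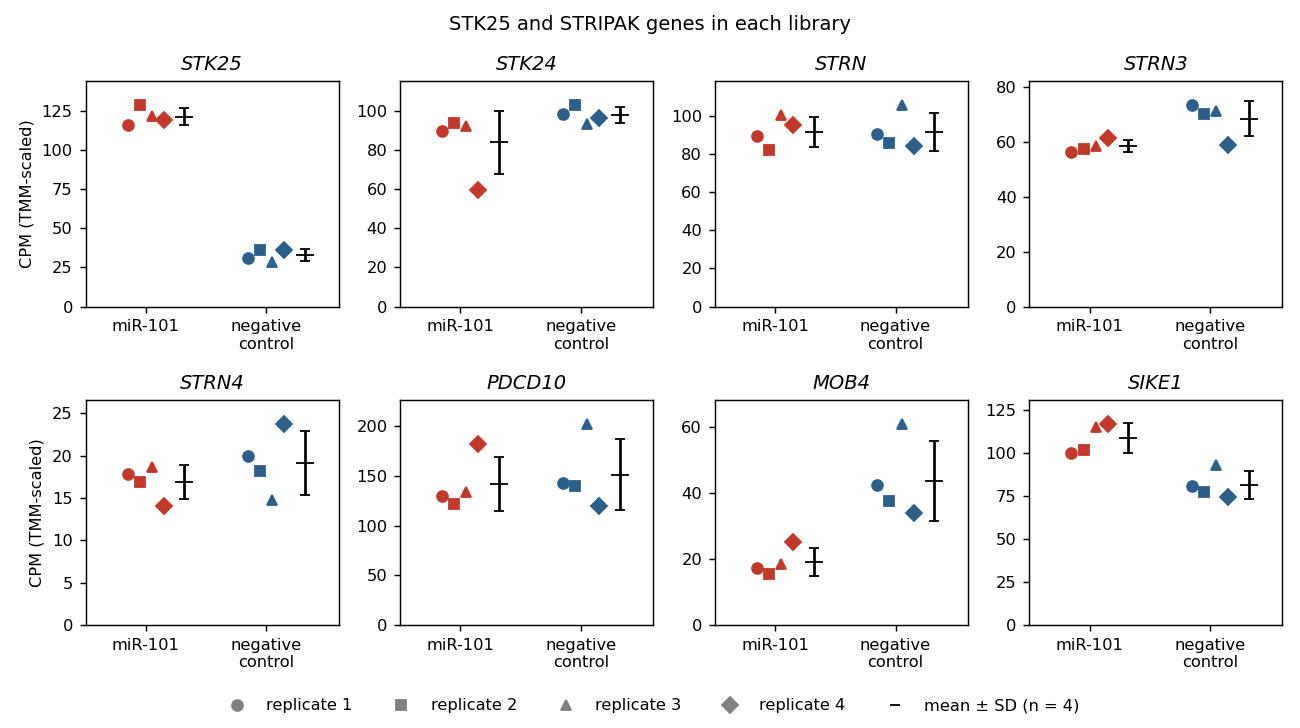
CPM of the 8 genes in each library, miR-101 left and negative control right of each panel, with markers for the replicate and bars for mean ± SD (n = 4 each). STK25 at 116 to 129 CPM stands clear of the control at 28.5 to 36.4 CPM, and MOB4 at 15.4 to 25.1 CPM lies below the control at 33.8 to 61.0 CPM.

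STK25, the Golgi-associated kinase of the set, lies on chromosome 2, 241492674 to 241509730 (GRCh38, minus strand). It had 116, 129, 122 and 119 CPM in miR-101 replicates 1 to 4, against 30.8, 36.2, 28.5 and 36.4 CPM in negative control replicates 1 to 4. All 4 miR-101 libraries lay more than 3 times above the highest control library, and the spread within each group was small. Means were 121 ± 5.51 CPM under miR-101 and 33.0 ± 3.96 CPM under the control mimic, a 3.68-fold difference. The log2 fold change was 1.88 ± 0.110 (95% interval 1.64 to 2.12). In same-numbered libraries it was 1.91, 1.83, 2.10 and 1.71. Its edgeR p of 3.49e-09 is the value that chose it. The next smallest was 5.18e-09 for CCDC80, an extracellular matrix gene with a log2 fold change of 2.11 ± 0.128. By size of rise STK25 ranked 54 of all tested genes. With any 1 of the 8 libraries left out it was still called, as it was with replicates 1 and 2 summed (edgeR adjusted p = 0.00246). In replicates 3 and 4 alone the log2 fold change was 1.89 and the edgeR adjusted p 0.0593.

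The span of STK25 shares exon bases with FARP2, a gene on the opposite strand, and since the sources used here do not say whether strand entered the counting, reads of the overlap cannot be told apart. FARP2, which encodes an exchange factor for small GTPases, had 63.9, 63.4, 56.1 and 40.6 CPM in miR-101 libraries, against 52.8, 50.9, 38.2 and 28.9 CPM in control libraries. Its groups overlapped and it was not called (log2 fold change 0.39 ± 0.203, edgeR adjusted p = 0.288). FARP2 was higher with miR-101 in 4 of 4 pairs, by log2 ratios of 0.27 to 0.55. Unlike STK25 it was lowest in replicate 4 of both groups. What part the shared bases have in either gene was not tested. The nearest tested genes clear of the span were BOK, 41693 bases to the right, and SEPT2, 138646 bases to the left. BOK, a BCL2 family gene, had a log2 fold change of -0.18 ± 0.191 (edgeR adjusted p = 0.624), and SEPT2, a cytoskeletal GTPase, one of -0.016 ± 0.109 (edgeR adjusted p = 0.952).

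STK24 (chromosome 13, 98445185 to 98577940), the other GCKIII kinase among the members, had 89.8, 93.5, 92.2 and 59.4 CPM in miR-101 libraries, against 98.5, 102.8, 93.3 and 96.2 CPM in control libraries. miR-101 replicate 4 lay far below all others, and replicate 2 of that group just above the lowest control library. The log2 fold change was -0.22 ± 0.140 (95% interval -0.53 to 0.087), and STK24 was not called. Without miR-101 replicate 4 it was -0.096. FARP1 and the antisense gene STK24-AS1 overlap it on the opposite strand, at 22.7 ± 4.65 and 0.568 ± 0.224 CPM under miR-101, against 27.1 ± 4.56 and 0.570 ± 0.127 CPM under the control mimic.

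The remaining GCKIII kinase, STK26, had 262 ± 26.6 CPM under miR-101, against 241 ± 45.8 CPM under the control mimic (log2 fold change 0.12 ± 0.140, edgeR adjusted p = 0.654). Per kilobase of the longest coding transcript STK25 made up 22.9 ± 1.73% of the summed level of the 3 kinases with miR-101 and 8.07 ± 1.98% in the control. The share of STK26 was 69.2 ± 3.34% with miR-101 and 80.2 ± 3.76% in the control, and that of STK24 was 7.85 ± 1.79% with miR-101 and 11.7 ± 1.81% in the control. STK26 transcripts were thus the most abundant of the family in every library, and STK25 passed STK24 in each miR-101 library. In control libraries STK25 was below STK24 throughout, at 5.71 to 10.2% against 9.22 to 13.3%. On exon union lengths the share of STK25 was 15.9 ± 1.37% with miR-101 and 5.32 ± 1.36% in the control.

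**Figure D2:**
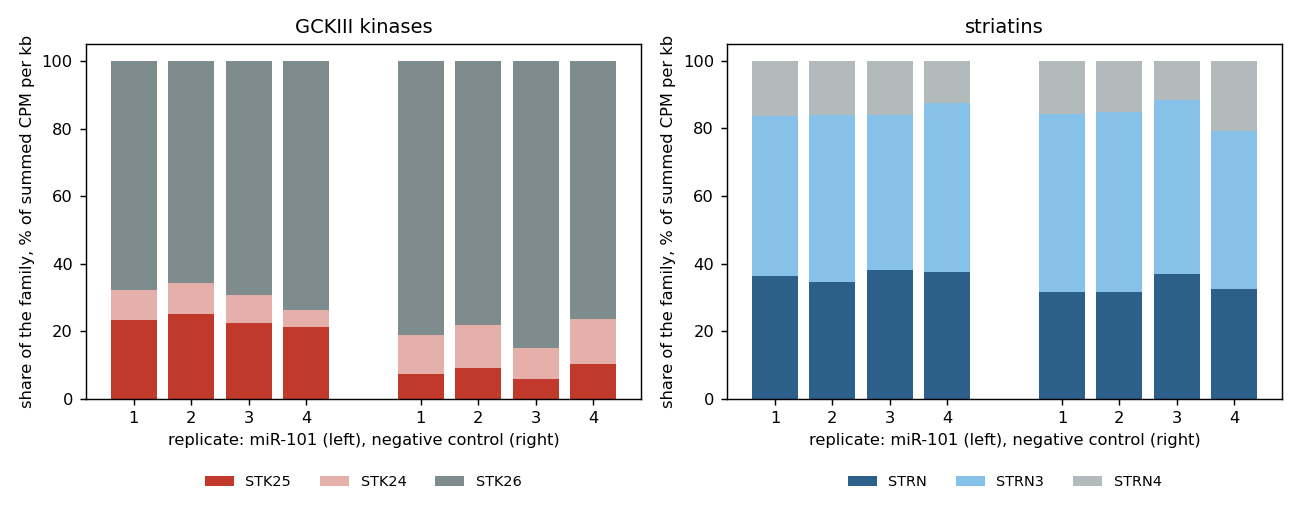
Share of each gene in the summed CPM per kilobase of its family, in percent, for the GCKIII kinases and the striatins, with 1 bar per library (miR-101 left, negative control right). STK25 takes 21.1 to 25.2% of the kinase sum in miR-101 libraries, against 5.71 to 10.2% in control libraries, while the striatin shares differ little.

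The striatins form the core on which the other subunits meet. STRN (chromosome 2, 36843640 to 36966472) had 89.4, 81.9, 100.3 and 94.9 CPM in miR-101 libraries, against 90.4, 85.7, 105 and 84.0 CPM in control libraries. The groups covered the same range, and the log2 fold change was 0.0044 ± 0.109 (95% interval -0.24 to 0.24). Leaving out 1 library turned its sign in 5 of 8 fits.

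STRN3 (chromosome 14, 30893799 to 31026401) had 56.3, 57.3, 58.5 and 61.3 CPM in miR-101 libraries, against 73.2, 69.9, 71.1 and 58.9 CPM in control libraries. It was lower in pairs 1 to 3 and level in pair 4, where the control library fell among the miR-101 values. The log2 fold change was -0.23 ± 0.0992 with an edgeR adjusted p of 0.209, so STRN3 was not called over the 8 libraries. In replicates 1 and 2 alone it was -0.34 and was called (edgeR adjusted p = 0.000474), and in replicates 3 and 4 it was -0.12. COCH and AP4S1 overlap STRN3 on the opposite strand. COCH, which encodes the inner ear protein cochlin and shares exon bases with STRN3, rose by 0.53 ± 0.108 (edgeR adjusted p = 0.0154), and AP4S1 had a log2 fold change of -0.36 ± 0.100 (edgeR adjusted p = 0.0561).

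STRN4 (chromosome 19, 46719507 to 46746994), the least abundant of the 3 scaffolds, had 17.9, 16.8, 18.7 and 14.1 CPM in miR-101 libraries, against 19.9, 18.1, 14.7 and 23.8 CPM in control libraries. The groups overlapped, and the log2 fold change was -0.18 ± 0.160. It was -0.060 without control replicate 4 and -0.29 without control replicate 3, and not called in either fit. Summed per kilobase, the 3 striatins stood at 30.6 ± 1.30 CPM per kb with miR-101 and 33.7 ± 1.59 CPM per kb in the control. STRN3 held 48.1 ± 1.98% of that sum with miR-101 and 51.0 ± 2.90% in the control, and STRN4 held 15.2 ± 1.80% with miR-101 and 15.8 ± 3.73% in the control.

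PDCD10 (chromosome 3, 167683298 to 167734939), the bridge between kinases and scaffold, had 130, 121, 134 and 182 CPM in miR-101 libraries, against 143, 140, 202 and 119 CPM in control libraries. Both groups spread widely around a common level, with miR-101 replicate 4 and control replicate 3 the highest of their groups. The log2 fold change was -0.092 ± 0.176 (95% interval -0.48 to 0.30), and it was 0.077 without control replicate 3 and -0.24 without miR-101 replicate 4.

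MOB4 (chromosome 2, 197515571 to 197553699), the MOB family subunit with the pair of 8mer matches, fell with the mimic. It had 17.4, 15.4, 18.6 and 25.1 CPM in miR-101 libraries, against 42.5, 37.5, 61.0 and 33.8 CPM in control libraries. All miR-101 libraries lay below all control libraries, with the smallest gap in pair 4. Means were 19.1 ± 4.19 CPM under miR-101 and 43.7 ± 12.1 CPM under the control mimic, 2.29-fold lower with miR-101. The log2 fold change was -1.19 ± 0.205 (95% interval -1.64 to -0.74, edgeR adjusted p = 0.00699). It was -1.29, -1.29, -1.72 and -0.43 in pairs 1 to 4. No single library was needed for the call, but it was lost with replicates 1 and 2 summed (log2 fold change -1.17, edgeR adjusted p = 0.0639) and in replicates 3 and 4 alone (-1.12, edgeR adjusted p = 0.365). The readthrough gene HSPE1-MOB4 covers the same exons on the same strand, so their reads cannot be told apart. HSPD1, which overlaps the span but no exon, had a log2 fold change of 0.043 ± 0.0989.

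SIKE1 (chromosome 1, 114769479 to 114780685), named as a suppressor of the kinase IKBKE, rose with the mimic and is the other member with an 8mer match. It had 100.3, 101.6, 115 and 117 CPM in miR-101 libraries, against 80.6, 77.4, 93.2 and 74.6 CPM in control libraries. The groups did not overlap, with control replicate 3 nearest to the miR-101 values. Means were 109 ± 8.84 CPM under miR-101 and 81.5 ± 8.22 CPM under the control mimic, 1.33-fold higher with miR-101. The log2 fold change was 0.41 ± 0.106 (95% interval 0.18 to 0.65, edgeR adjusted p = 0.0422). It was positive in all 4 pairs, from 0.31 to 0.65. The call rests close to the threshold. It was kept without control replicate 3 (edgeR adjusted p = 0.0219) and lost when any of the other 7 libraries was left out (0.0541 to 0.128), and the log2 fold change ranged from 0.37 to 0.48.

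**Figure D3:**
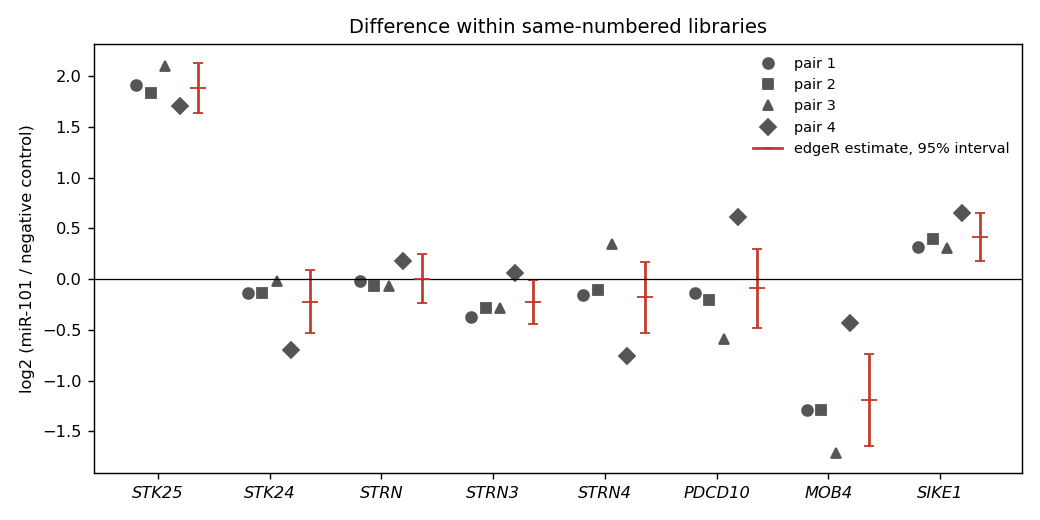
Log2 ratio of miR-101 to negative control for each same-numbered pair of libraries (markers) and the edgeR log2 fold change with its 95% interval (red) for the 8 genes. The STK25 pairs lie between 1.71 and 2.10 and those of MOB4 between -1.72 and -0.43, while STRN, STRN3, STRN4 and PDCD10 have pairs on both sides of 0.

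Libraries that stood apart did so in the same members. In miR-101 replicate 4 and negative control replicate 3, MOB4, PDCD10 and SIKE1 were the highest of their groups and STK24 and STRN4 the lowest. These are also the libraries with the lowest TMM factors. Leaving out both gave log2 fold changes of 1.83 for STK25, -1.15 for MOB4 and 0.45 for SIKE1, each called by edgeR (adjusted p = 0.00146, 0.00514 and 0.0337). PDCD10 had -0.064, STK24 -0.11 and STRN4 -0.21 in that fit and were not called.

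The order of the members by level was taken per kilobase of the longest coding transcript. With miR-101 it ran from PDCD10 (68.6 ± 13.2 CPM per kb) over STK25 (26.3 ± 1.19), SIKE1 (19.7 ± 1.61), STRN3 (14.7 ± 0.543), STRN (11.2 ± 0.965), STK24 (8.94 ± 1.74) and MOB4 (4.79 ± 1.05) to STRN4 (4.65 ± 0.554). In the control it ran from PDCD10 (73.1 ± 17.3 CPM per kb) over STRN3 (17.2 ± 1.62), SIKE1 (14.8 ± 1.49), STRN (11.19 ± 1.196), MOB4 (10.96 ± 3.03), STK24 (10.4 ± 0.427) and STK25 (7.13 ± 0.857) to STRN4 (5.27 ± 1.04). STK25 thus stood second of 8 with miR-101 and seventh in the control. With miR-101 only the libraries of the neighbours MOB4 and STRN4 overlapped. In the control the neighbours STRN3 and SIKE1, STRN and MOB4, MOB4 and STK24, and STK25 and STRN4 overlapped. On exon union lengths STK25 was at position 3 with miR-101, just behind SIKE1, the highest STK25 library standing at 16.97 CPM per kb and the lowest SIKE1 library at 17.01 CPM per kb.

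Over the 12186 tested genes with a 3' UTR, those with an 8mer or 7mer-m8 match had lower medians than those with none. Those with a 7mer-A1 did not. The median log2 fold change was -0.26 for 560 genes whose strongest match was an 8mer, -0.097 for 996 with a 7mer-m8, 0.0035 for 1348 with a 7mer-A1 and -0.011 for 9282 with none. These are descriptions over genes, which are not replicates. Of the 560 8mer genes 123 were called lower and 12 higher. Among the 9282 genes with none, 226 (2.43%) were called lower and 312 (3.36%) higher. MOB4 had the 15th lowest log2 fold change of the 560 8mer genes, and SIKE1 the 39th highest. STK25 had the 4th highest of the 996 7mer-m8 genes, of which 4.02% were called higher and 8.53% lower. STK24, of the same class, ranked 334 from the lowest. Among the other STRIPAK genes CTTNBP2 held an 8mer, PPP2R1A a 7mer-m8 and PPP2R1B a 7mer-A1, and none of these was called.

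**Figure D4:**
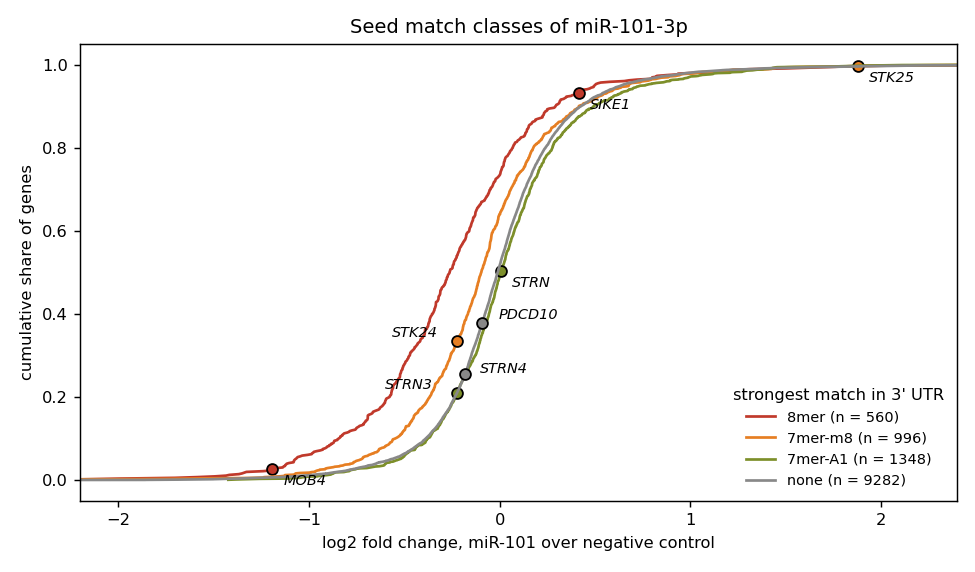
Cumulative share of genes against log2 fold change, miR-101 over negative control, for genes grouped by the strongest miR-101-3p seed match in the longest 3' UTR, with the 8 members marked on the curve of their class. The 8mer curve lies left of the others, with MOB4 near its lower end and SIKE1 in its upper part, and STK25 lies near the top of the 7mer-m8 curve.

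Across the 8 libraries, the genes whose log2 CPM followed STK25 most closely were GABRE, a GABA receptor subunit (Pearson r = 0.989), FSTL1, a secreted glycoprotein (0.987), and MATN2, a matrix protein (0.984), of 11501 genes with at least 4 CPM on average. Those that ran most nearly opposite were TLR4, a receptor of innate immunity (-0.996), KPNA1, a nuclear import factor (-0.994), and UBE2A, a ubiquitin-conjugating enzyme (-0.991). The libraries form 2 groups and STK25 was chosen for its difference between them, so r mostly orders genes by that same difference. Among the members r was 0.834 for SIKE1 and -0.932 for MOB4, and between -0.808 (STRN3) and -0.068 (STRN) for the others. FSTL1 had 1393 ± 111 CPM under miR-101, against 717 ± 34.6 CPM under the control mimic, and TLR4 26.3 ± 0.899 CPM under miR-101, against 79.1 ± 11.4 CPM under the control mimic.

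The partners of the members came from 7 lists of 74 genes, of which 71 were tested. By edgeR 4 of the 71 were called lower and none higher, where 3.32% of all genes were called lower and 3.3% higher. An unadjusted p under 0.05 was found for 21 of the 71 and for 22.3% of all genes. Their median log2 fold change was -0.091, against -0.0051 over all tested genes. The lists were chosen with earlier results of these data known, and nothing is read from these counts.

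**Figure D5:**
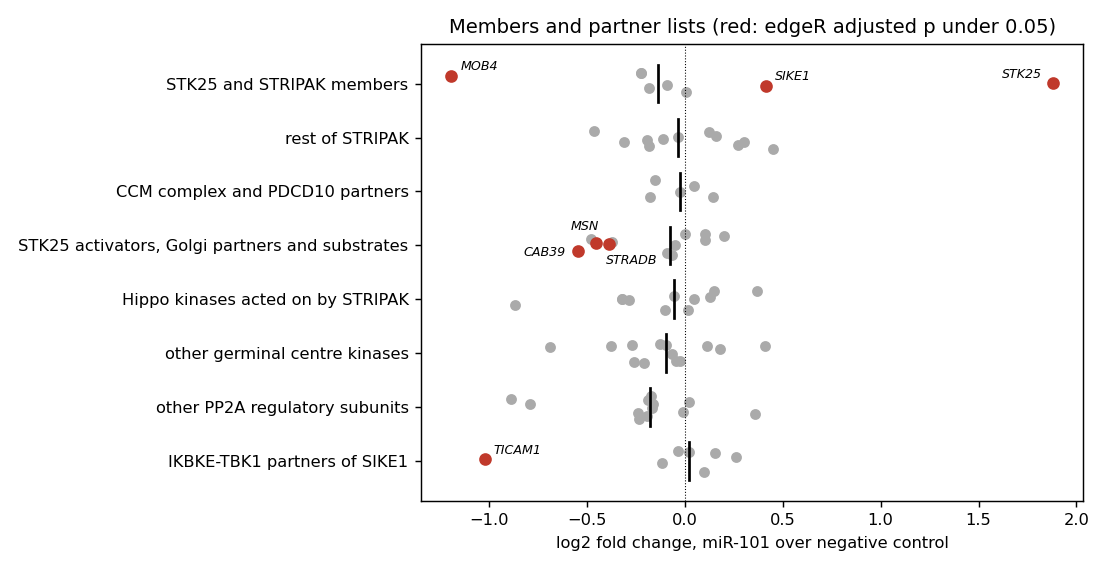
Log2 fold change, miR-101 over negative control, of the 8 members and of the tested genes of 7 partner lists (points, red where edgeR's adjusted p is under 0.05), with the median of each list as a black bar. STK25, which was chosen by this contrast, lies at 1.88, beyond every partner gene. The 4 called partners CAB39, MSN, STRADB and TICAM1 all lie below 0.

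Of the rest of STRIPAK, 11 of 12 genes were tested and none was called by edgeR, with a median of -0.037. An unadjusted edgeR p under 0.05 was found for 4 of them and for 22.3% of all genes. The scaffold gene STRIP2 had a log2 fold change of 0.45 ± 0.160 (edgeR adjusted p = 0.127), the PP2A scaffold PPP2R1B 0.27 ± 0.100 (0.140) and FGFR1OP2, a striatin partner, 0.30 ± 0.121 (0.167). The PP2A catalytic genes PPP2CA and PPP2CB, near-identical copies in protein, had -0.11 ± 0.0915 and -0.18 ± 0.131. With the replicate block STRIP2 was called, and DESeq2 and limma-voom called no gene of this list. The CCM list of PDCD10 partners held 5 tested genes, none called by edgeR, DESeq2 or limma-voom and none with an unadjusted edgeR p under 0.05. Of these KRIT1, the CCM1 protein, had 0.14 ± 0.0906 and ITGB1BP1, an integrin-binding partner of KRIT1, -0.15 ± 0.140. CCM2L, a relative of CCM2, stood under 1 CPM on average in both groups and had -0.18 ± 0.426.

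Activators, Golgi partners and substrates of STK25 held the called partners with appreciable levels. Of 12 tested, 3 were called lower and none higher by edgeR, where 3.32% of all genes were called lower and 3.3% higher. A negative log2 fold change was found for 9 of the 12 and for 8068 of all 15905 tested genes. The median of the list was -0.078. Since the list was chosen with earlier results of these data known, nothing is read from these counts. CAB39, the MO25 scaffold that activates STRAD and GCKIII kinases, had 169, 155, 162 and 179 CPM in miR-101 libraries, against 221, 236, 251 and 264 CPM in control libraries. The groups did not overlap, and the log2 fold change was -0.55 ± 0.0971 (edgeR adjusted p = 0.0084), and the call held with any 1 library left out. With replicates 1 and 2 summed no gene of the 7 lists was called. MSN, the membrane linker moesin, stood at 133 ± 8.92 CPM under miR-101, against 182 ± 18.5 CPM under the control mimic. Its log2 fold change was -0.46 ± 0.104 (edgeR adjusted p = 0.0266), and the call was lost without any 1 of the miR-101 libraries and without control replicate 1 (up to 0.0834). STRADB, a pseudokinase partner of STK11, had 20.5 ± 1.31 CPM under miR-101, against 26.7 ± 1.27 CPM under the control mimic. Its log2 fold change was -0.39 ± 0.103 (edgeR adjusted p = 0.0498), a call kept without control replicate 4 and lost without any other single library. The call was also lost in limma-voom (adjusted p = 0.0506) and in edgeR on library totals without TMM factors (adjusted p = 0.0898). STRADB overlaps TRAK2 on the opposite strand. YWHAZ, a 14-3-3 adaptor, had -0.37 ± 0.109 (edgeR adjusted p = 0.069) and was called by DESeq2 and with the replicate block. None of CAB39, MSN and STRADB had a 7mer or 8mer match in its longest 3' UTR. The Golgi matrix gene GOLGA2 stood at 14.9 CPM in both groups (log2 fold change -2e-04 ± 0.190).

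The Hippo kinases and their adaptors, 11 genes, held no call by edgeR (4 at an unadjusted p under 0.05, against 22.3% of all genes). MOB1A had a log2 fold change of 0.37 ± 0.100 (edgeR adjusted p = 0.0532), STK4 -0.32 ± 0.0904 (0.0603) and NF2, the tumour suppressor merlin, -0.87 ± 0.254 (0.069). All 3 were called by DESeq2, MOB1A also by limma-voom, and MOB1A and NF2 with the replicate block. NF2 stood at 180 CPM in control replicate 4, against 83.3 to 86.1 CPM in the other control libraries, and its log2 fold change without that library was -0.52. Among 13 further germinal centre kinases none was called by edgeR or limma-voom (4 at an unadjusted edgeR p under 0.05, against 22.3% of all genes). OXSR1, a kinase of ion transport, had 0.41 ± 0.111 (edgeR adjusted p = 0.0543), MAP4K2 -0.69 ± 0.198 (0.0658) and TAOK1 -0.27 ± 0.103 (0.154), and DESeq2 called OXSR1 and MAP4K2. With the replicate block OXSR1 was called (edgeR adjusted p = 0.0267).

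Of 12 tested PP2A regulatory subunits outside the striatins none was called by edgeR or limma-voom. An unadjusted edgeR p under 0.05 was found for 3 of them and for 22.3% of all genes. A negative log2 fold change was found for 10 of the 12 and for 8068 of all 15905 tested genes. The median of the list was -0.18. This list too was chosen with earlier results known, and nothing is read from these counts. PPP2R3A had -0.89 ± 0.249 (edgeR adjusted p = 0.0613), PPP2R5A 0.36 ± 0.102 (0.0658) and PPP2R5B -0.79 ± 0.336 (0.194), and DESeq2 called PPP2R3A and PPP2R5A. With the replicate block PPP2R3A was called (edgeR adjusted p = 0.0144). Of 7 partners of SIKE1 in the IKBKE and TBK1 pathway, TICAM1, an adaptor of Toll-like receptors, was called lower by edgeR at a log2 fold change of -1.02 ± 0.272 (adjusted p = 0.0494). It stood at 0.411 ± 0.0961 CPM under miR-101, against 0.840 ± 0.145 CPM under the control mimic, and leaving out any 1 library ended the call (0.056 to 0.144). It was also lost with the replicate block (edgeR adjusted p = 0.0668) and in DESeq2 (0.114). The adaptor TANK had a log2 fold change of 0.26 ± 0.122 (edgeR adjusted p = 0.233) and the transcription factor IRF3 0.099 ± 0.117 (0.664). TBK1 and IKBKE, the kinases themselves, had log2 fold changes of 0.019 ± 0.0983 and -0.12 ± 0.198.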

How the data were processed

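The authors deposited whole-number read counts per gene symbol, not normalised, for 8 libraries with 4 per group. The tools named in the submitters' processing notes are TopHat2 2.0.14, StringTie 1.2.4 and bcl2fastq 2.18.0.12, with the hg38 build. The sources used here do not give the counter, its annotation or whether strand was used. The test was edgeR 4.0.16 under R 4.3.3 (filterByExpr, TMM factors, glmQLFit, glmQLFTest, group as the only term) with Benjamini-Hochberg adjustment over 15905 genes, and the procedure was tested on simulated data. DESeq2 1.42.0 and limma-voom (limma 3.58.1) served as alternatives. Each log2 fold change sets miR-101 over the control and stands ± the standard error from the F statistic. Intervals and p-values measure the spread between these libraries.

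The members, lists and alternatives were chosen with earlier results of these data known. Named partners were the called genes of each list, with those of smallest p up to 3 per list. PPP2CA, PPP2CB, PPP2R1A, CTTNBP2, STK26, GOLGA2, YWHAZ, TBK1 and IKBKE fall outside that rule and were named after their values were seen.

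Pairs here are libraries of the same number, since the labels describe 4 transfection experiments without tying numbers to them. Deviations from the group means correlated between same-numbered libraries at 0.328, 0.425, 0.185 and 0.209 over genes. Libraries 1 and 2 of opposite groups correlated at 0.372 and 0.374, and miR-101 replicate 4 with control replicate 3 at 0.391, above the same-numbered pairs 3 and 4. These correlations do not settle which libraries belong together, least of all for replicates 3 and 4. The values per pair and the replicate block rest on the numbers alone.

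Names, positions, lengths and 3' UTRs came from GENCODE 29, which matched 14085 of 15982 symbols, 12186 of them tested and with a 3' UTR. Annotated exons after the stop codon of the coding transcript with the longest such stretch were searched.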

Additional observations from a re-analysis of the deposited data

Results flagged for a closer look

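In 60 groups of 4 libraries, 8 held a library whose gap to the nearest other was above Dixon's 95% critical share of the group's range. Chance alone gives such a gap in about 1 of 20 groups, a lower share than here. STK24 stood at 59.4 CPM in miR-101 replicate 4, against 89.8 to 93.5 CPM in the other miR-101 libraries. STRIP2 stood at 37.2 CPM in miR-101 replicate 3, against 47.9 to 48.4 CPM in the other miR-101 libraries, and at 23.1 CPM in control replicate 3, against 36.1 to 37.1 CPM in the other controls. NF2 stood at 180 CPM in control replicate 4, against 83.3 to 86.1 CPM in the other controls. CCM2L stood at 1.53 CPM in control replicate 4, against 0.604 to 0.627 CPM. STRADB stood at 22.4 CPM in miR-101 replicate 1, against 19.7 to 19.9 CPM. TANK stood at 55.5 CPM in miR-101 replicate 4, against 61.1 to 62.1 CPM. IRF3 stood at 42.3 CPM in miR-101 replicate 2, against 35.6 to 36.5 CPM.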

How the results depend on the processing

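STK25, MOB4 and SIKE1 kept their direction under all 18 alternatives. Their groups did not overlap, so refits of these libraries, or of fewer of them, could hardly turn the sign, and nothing is read from this. Over all genes 1053 calls became 1676 with the replicate block, 1714 in DESeq2, 5126 in replicates 1 and 2 only, 6 in replicates 3 and 4 only and 173 with replicates 1 and 2 summed, and 488 to 1419 when 1 library was left out (fewest without miR-101 replicate 1, most without control replicate 4). Members called were 3 with all libraries, 2 or 3 with 1 library left out, 4 in replicates 1 and 2 only, 1 with replicates 1 and 2 summed and 0 in replicates 3 and 4 only. In replicates 3 and 4 only the log2 fold changes were 1.89 (STK25), -1.12 (MOB4) and 0.47 (SIKE1), no longer called (edgeR adjusted p = 0.0593, 0.365 and 0.668), and with replicates 1 and 2 summed -1.17 (MOB4) and 0.43 (SIKE1, 0.208), with fewer libraries in both fits. Leaving out 1 library gave 0.37 to 0.48 for SIKE1, -0.046 to 0.075 for STRN, -0.24 to 0.077 for PDCD10 and -0.49 to 0.30 for CCM2L, with a change of sign in STRN, PDCD10 and CCM2L, and in replicates 1 and 2 only STRN had -0.045, STRN3 -0.34 and CCM2L 0.37. Called partners were 4, and 9 with the replicate block, 11 in DESeq2, 35 in replicates 1 and 2 only, 0 in replicates 3 and 4 only and 0 with replicates 1 and 2 summed, and 1 to 8 when 1 library was left out. The replicate block changed no call of a member, and among named partners it ended that of TICAM1. Leaving out both libraries with low TMM factors was chosen after seeing the data. The cause of these shifts was not tested.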
